A study of Homo sapiens with 4 samples.

Results

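The proteasome is the cell's main protease for ubiquitin-tagged proteins, and its subunits and assembly factors are described here in 2 human cancer cell lines with and without CPYPP. The genes were taken by symbol: every row of the count table whose symbol is PSM, a letter from A to G and a number, with pseudogenes and antisense genes left out. This gave 48 genes of the 61806 in the table. The 20S alpha ring had 8 members, the 20S beta ring 7, the immunoproteasome and thymoproteasome 4, the 19S ATPases 6, the other 19S subunits 11, the activators with the inhibitor PI31 5, and the assembly factors 7.

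Wild-type MDA-MB-231 breast cancer cells and wild-type MDA-MB-435 melanoma cells were sequenced as a control and after 6 h with CPYPP, an inhibitor of DOCK proteins, which activate the GTPase Rac. The dose was 10 µM, and the treatment description names only MDA-MB-435, so that the line of each library rests on its own label. There was 1 library of poly(A)-selected RNA in each condition and no replicate culture. The labels do not say what the control cells received.

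Reads counted on genes came to between 17196385 and 22663954 per library. The lines were checked on marker genes. SOX10 and S100B, defining genes of the melanocyte lineage, had 0 or 1 count in the MDA-MB-231 libraries and between 707 and 3031 in those of MDA-MB-435, but TYR, which encodes the melanin-forming tyrosinase, had at most 3 counts in any library. DCT separated the lines in the same direction, with at most 3 counts against at least 464. Of the other melanocyte genes, MITF (690 to 1585 counts) and MLANA (8 to 14) did not separate the lines, and PMEL was higher in MDA-MB-231 (29 to 34 counts against 4 to 13). The epithelial genes EPCAM and KRT19 had at least 287 counts in the MDA-MB-231 libraries and at most 4 in those of MDA-MB-435. KRT7 and KRT8 were also higher in MDA-MB-231 (at least 8719 counts against at most 625), while KRT18 had 4077 to 8212 counts with overlap between the lines. Of the luminal breast genes, PGR had at most 1 count, ESR1 between 2 and 24, and GATA3 between 83 and 242.

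Proteolysis takes place inside the 20S core, a barrel of 2 outer alpha rings and 2 inner beta rings, in which PSMB5, PSMB6 and PSMB7 carry the active sites. The 19S cap binds ubiquitin chains, removes them and threads the substrate into the core with a ring of 6 ATPases. Under interferon, PSMB8, PSMB9 and PSMB10 can replace the 3 constitutive catalytic subunits to form the immunoproteasome, which favours peptides for class I antigen presentation. When proteasome activity falls short, the transcription factor NFE2L1 is known to escape degradation and to raise subunit genes through antioxidant-type response elements.

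Because this control acts through the promoter, the promoter sequences of RefSeq (GRCh38.p14) were searched for the core of that element, TGACNNNGC, on both strands in the 250 bases before each start. Of the 48 members, 42 had a promoter in the RefSeq table, and 13 of these held the letters (31.0%), beside 13.2% of all genes with a promoter there. By class the 13 were 1 of 7 alpha, 1 of 4 beta, 1 of 4 immunoproteasome and thymoproteasome, 1 of 6 ATPase, 2 of 10 non-ATPase, 3 of 5 activator and 4 of 6 assembly genes. Examples from each class are given below on the strand that reads TGAC, with the match in capitals and 10 bases on either side. The matches of PSME1, PSME2, PSMD9, PSMG1 and PSMG2 are not printed, so the windows shown are not the full set. The windows lie on the strand named, whichever strand the gene is on.
PSMA4, chr15:78540650-78540678, plus strand: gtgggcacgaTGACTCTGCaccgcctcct
PSMB3, chr17:38752627-38752655, plus strand: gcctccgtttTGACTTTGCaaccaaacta
PSMB9, chr6:32854034-32854062, minus strand: ccgagacaagTGACGAGGCagccccgccc
PSMC5, chr17:63827654-63827682, minus strand: agggcggcgcTGACACAGCagatccggtc
PSMD12, chr17:67366724-67366752, minus strand: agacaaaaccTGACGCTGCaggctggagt
PSMD3, chr17:39980760-39980788, plus strand: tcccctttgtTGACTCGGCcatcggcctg
PSME4, chr2:53971009-53971037, plus strand: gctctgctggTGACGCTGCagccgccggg
PSMD5, chr9:120843038-120843066, minus strand: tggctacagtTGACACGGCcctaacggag
The matches of PSMD12 and PSME4 have the same letters. The match ended 156 bases before the start in PSMD12, 25 in PSME4, 28 in PSMD3 and 48 in PSMC5. A match describes the sequence and is not a measured binding site. Paired units of the heat shock element, GAANNTTC and TTCNNGAA, were found in 0 and 3 of the 42 promoters, beside 7.05% and 8.12% of all genes. CCAAT was found in 19 of the 42, beside 37% of all genes.

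Counts were scaled by the trimmed mean of M values (TMM), and a level is given as CPM, the counts per 1000000 of the scaled library. In MDA-MB-231 the members together took 0.650% of the reads in the control library (95% exact binomial interval 0.647% to 0.653%) and 0.698% in the CPYPP library (0.694% to 0.702%). In MDA-MB-435 they took 0.631% (0.627% to 0.634%) and 0.750% (0.746% to 0.754%). Such intervals cover counting error alone, here and below. PSMA8, the alpha subunit of the testis, and PSMB11, the beta subunit of the thymus, had 0 counts in all 4 libraries, where 3 counts would be 0.127 to 0.181 CPM. The other 46 members were tested. In bulk RNA, a change in part of the cells and a smaller change in all of them cannot be told apart.

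The first question was whether the proteasome genes moved alike in both lines. A common effect of CPYPP was fitted by the quasi-likelihood test of edgeR on all 4 libraries, with the line as a block and 1 residual degree of freedom, and p-values were adjusted by Benjamini-Hochberg over all 16801 genes. Over all genes 3.59% were higher and 2.47% lower at an adjusted p under 0.05. Of the 46 members, 4 rose and 0 fell. At an unadjusted p under 0.05 there were 17 higher and 3 lower, beside 10.9% and 11.4% of all genes. DESeq2 called 11 higher and 1 lower, beside 10.1% and 6.91% of the 12566 genes to which it gave an adjusted p. Without the line as a block, without a filter on low counts, or with limma on log2(FPKM + 1), 0 members passed in either direction, and of all genes at most 0.958% passed as higher and 0.423% as lower in any of these fits. The median log2 fold change of the members was 0.20, beside -0.043 over all genes tested.

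The 4 members that rose were PSMD11, PSMD12, PSMC2 and PSME4. PSMD11 and PSMD12 are scaffold subunits of the 19S lid. In MDA-MB-231, PSMD11 had 229 CPM in the control and 310 CPM in the CPYPP library, and in MDA-MB-435 it had 145 CPM and 264 CPM. Pairs of values below give the control first. PSMD11 had a common log2 fold change of 0.65 with a standard error of 0.13 (edgeR adjusted p = 0.0253). Both CPYPP libraries were above both controls.

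PSMD12 had 237 and 339 CPM in MDA-MB-231 and 187 and 310 CPM in MDA-MB-435. The common log2 fold change was 0.62 ± 0.11 (SE, edgeR adjusted p = 0.0166), the smallest adjusted p of any member. Here too both CPYPP libraries were above both controls.

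PSMC2, an ATPase of the 19S base whose protein the study probed, had 172 and 220 CPM in MDA-MB-231 and 146 and 216 CPM in MDA-MB-435. This gave a common log2 fold change of 0.46 ± 0.11 (SE, edgeR adjusted p = 0.0484), just inside the threshold. PSMD1, the large scaffold of the 19S base, was just outside it with 0.51 ± 0.12 (SE, edgeR adjusted p = 0.0503). A pair of values this close to the threshold cannot be ranked.

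PSME4 encodes PA200, an activator that caps the 20S core without ATP. It had 183 and 269 CPM in MDA-MB-231 and 175 and 239 CPM in MDA-MB-435, with a common log2 fold change of 0.51 ± 0.10 (SE, edgeR adjusted p = 0.0297). The controls lay close together and the CPYPP libraries above them. The table places PSMD11 on chromosome 17 (32444379 to 32483319, plus strand), PSMD12 on chromosome 17 (67337916 to 67366605, minus strand), PSMC2 on chromosome 7 (103328570 to 103370346, plus strand) and PSME4 on chromosome 2 (53864069 to 53970993, minus strand), all in GRCh38.

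**Figure D1:**
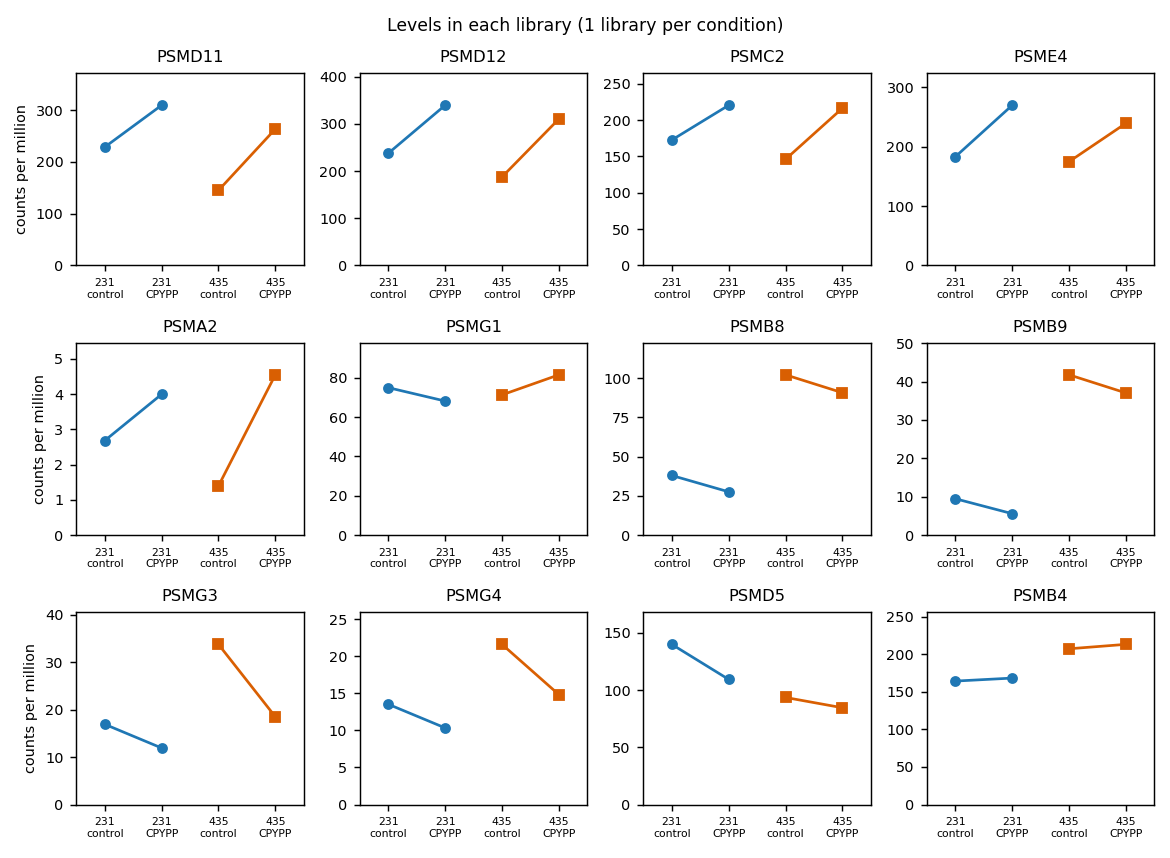
Levels in CPM (TMM scaled, axis from 0) of 12 members in the 4 libraries; circles are MDA-MB-231, squares are MDA-MB-435, and a line joins control and CPYPP of 1 line, with 1 library per point. PSMD11, PSMD12, PSMC2 and PSME4 were higher after CPYPP in both lines, PSMB8, PSMB9, PSMG3, PSMG4 and PSMD5 were lower in both, and PSMG1 moved in opposite directions.

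Within a line, the reads of the CPYPP library were compared with those of the control by an exact binomial test, adjusted by Benjamini-Hochberg over all genes with at least 10 counts in 1 of the 2 libraries. This test compares 2 libraries, not 2 conditions, since cultures of a line may differ by more than counting error. In MDA-MB-231 it called 23.5% of 16441 genes higher and 21.8% lower. In MDA-MB-435 it called 22.2% of 16527 genes higher and 29.2% lower. Beside these shares, MDA-MB-231 had 24 members higher and 9 lower, with a median log2 fold change of 0.097 (all genes -0.021). In MDA-MB-435, 33 members were higher and 5 lower, with a median of 0.29 (all genes -0.090). If cultures are assumed to vary with a coefficient of 0.1, these calls became 0 and 0 in the first line, where 5.15% and 3.52% of all genes passed, and 8 and 1 in the second, where 5.14% and 9.09% passed.

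Of the 46 members, 24 were higher in both lines, beside 14.8% of the 14262 genes tested in both. These were all the members called higher in MDA-MB-231. A further 8 members were higher in MDA-MB-435 and had no call in MDA-MB-231: PSMA2, PSMA4, PSMB5, PSMB6, PSMC3, PSMD4, PSMD7 and PSME2. The 5 members lower in both lines were PSMB8, PSMB9, PSMD5, PSMG3 and PSMG4, and 12.7% of all genes tested in both were lower in both. PSMB4, PSMB10, PSME3, PSMF1 and PSMD10 had no call in either line. The log2 fold change was larger in MDA-MB-435 for 39 of the 46 members and for 46.5% of all genes tested in both lines. The difference in response between the lines was not tested, since each line has 1 library per condition.

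Every change but 1 was under 2-fold. With a fold change over 2 added to the test, MDA-MB-231 had 4.15% of genes higher and 3.16% lower, and MDA-MB-435 had 2.72% and 7.54%. Of the members 0 passed in MDA-MB-231 in either direction, and only PSMA2 passed in MDA-MB-435, where it was higher.

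**Figure D2:**
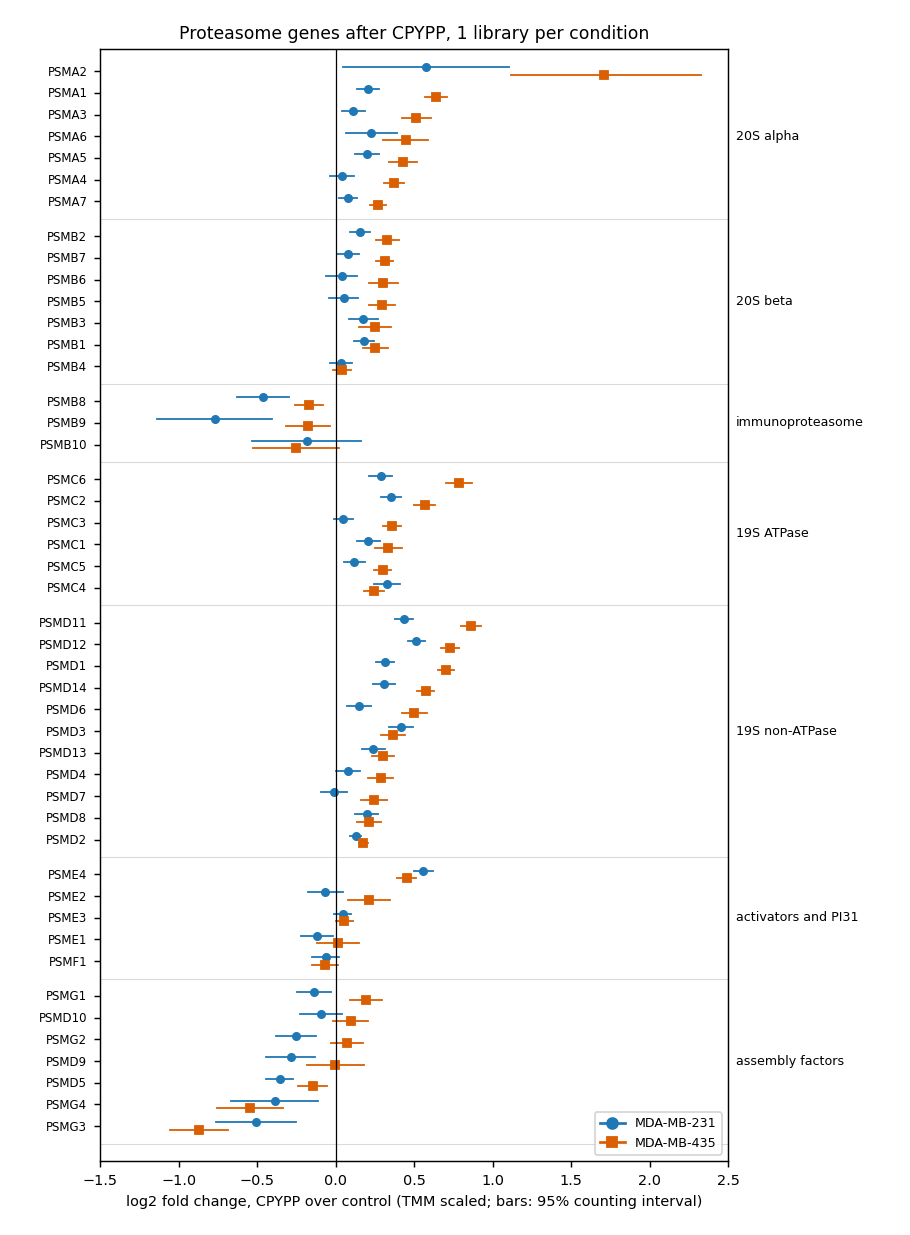
Log2 fold change of CPYPP over control for the 46 tested members, grouped by class; circles are MDA-MB-231, squares are MDA-MB-435, and bars are 95% exact binomial intervals for counting error, with 1 library per condition. The 31 constitutive 20S and 19S genes lie to the right of 0 in MDA-MB-435 and, but for PSMD7, in MDA-MB-231, while the immunoproteasome genes lie to the left in both.

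The classes differed in how many of their members were called higher or lower. Among the constitutive 20S and 19S genes, 23 of 31 tested were higher in MDA-MB-231 and 30 of 31 in MDA-MB-435, and 0 were lower in either. Among the other 15 tested members, MDA-MB-231 had 1 higher and 9 lower, and MDA-MB-435 had 3 higher and 5 lower. For comparison, a higher call went to 23.5% of all genes tested in MDA-MB-231, a lower call to 21.8%. For MDA-MB-435 the matching shares were 22.2%, then 29.2%. The calls of these 15 members in MDA-MB-435 were thus close to what all genes showed there. Summed over the constitutive genes, the level went from 5269 to 6042 CPM in MDA-MB-231 and from 4868 to 6341 CPM in MDA-MB-435. Summed over the remaining members it went from 1219 to 1220 CPM and from 1163 to 1209 CPM.

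The alpha subunits form the outer rings and the gate of the core. Of 7 tested, 5 were higher in MDA-MB-231 and all 7 in MDA-MB-435, with median log2 fold changes of 0.20 and 0.45. PSMA5, probed by the study as a protein, had 138 and 158 CPM in MDA-MB-231, a ratio of 1.15 (95% counting interval 1.09 to 1.21). In MDA-MB-435 it had 82.0 and 111 CPM, a ratio of 1.35 (1.27 to 1.43). Its common log2 fold change of 0.31 ± 0.11 (SE) missed the threshold (edgeR adjusted p = 0.148).

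PSMA4 had the lowest alpha log2 fold change in MDA-MB-231 (0.039, 144 and 147 CPM), and its counting interval held 1. PSMA7 had the lowest in MDA-MB-435 (0.27, 252 and 304 CPM). PSMA1, second to PSMA2 among the alpha genes in MDA-MB-435, went there from 123 to 192 CPM.

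PSMA2, also probed as a protein, had few reads: 60 and 66 counts in MDA-MB-231, then 33 and 88 counts in MDA-MB-435. In MDA-MB-435 the ratio was 3.27 (95% counting interval 2.17 to 5.03, exact binomial adjusted p = 6.03e-09), and in MDA-MB-231 it was 1.49 (1.03 to 2.15, adjusted p = 0.0639). The common log2 fold change of 1.10 ± 0.35 (SE) missed the threshold (edgeR adjusted p = 0.11). The other tested alpha genes had between 582 and 5968 counts per library. In GENCODE release 29, 97.1% of the coding bases of PSMA2 are shared with a read-through gene on the same strand, ENSG00000256646, whose own row held 4, 7, 12 and 8 counts. Reads that fall on 2 genes may be left uncounted, and the part of this in the PSMA2 values was not tested. PSMA1 (88.6%), PSMA6 (70.4%), PSMD9 (58.7%) and PSMB10 (58.3%) also share over 50% of their coding bases with another gene on their strand.

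The beta rings hold the active sites. All 7 beta genes had values above the control in both lines, and 4 passed as higher in MDA-MB-231 and 6 of them in MDA-MB-435, with median log2 fold changes of 0.080 and 0.29. PSMB5, the chymotrypsin-like subunit and the target of bortezomib, had 97.0 and 100.4 CPM in MDA-MB-231, a ratio of 1.04 with a counting interval of 0.971 to 1.11. In MDA-MB-435 it had 95.2 and 117 CPM, a ratio of 1.23 (1.16 to 1.30).

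PSMB6, the caspase-like subunit, had 87.5 and 89.8 CPM in MDA-MB-231 and 83.8 and 103 CPM in MDA-MB-435. PSMB7, the trypsin-like subunit, had 177 and 187 CPM in MDA-MB-231 and 224 and 278 CPM in MDA-MB-435. For all 3 catalytic subunits the MDA-MB-435 interval lay above 1, and in MDA-MB-231 only that of PSMB7 did (1.01 to 1.11).

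PSMB1 had the highest beta log2 fold change in MDA-MB-231 (0.18, 190 and 215 CPM) and PSMB2 in MDA-MB-435 (0.33, 130 and 163 CPM). PSMB4 was lowest in both, at 0.034 (164 and 168 CPM) and 0.041 (207 and 213 CPM), with intervals that held 1. It was the one constitutive subunit with no call in either line.

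The immunoproteasome genes had lower values after CPYPP. PSMB8, which takes the place of PSMB5, had 37.9 and 27.5 CPM in MDA-MB-231, a ratio of 0.725 (95% counting interval 0.646 to 0.814). In MDA-MB-435 it had 102 and 90.7 CPM, a ratio of 0.888 (0.835 to 0.945). PSMB9, which takes the place of PSMB6, had 9.46 and 5.57 CPM in MDA-MB-231, a ratio of 0.588 (0.455 to 0.755), the lowest of any member in that line. In MDA-MB-435 it had 41.8 and 37.0 CPM, a ratio of 0.887 (0.804 to 0.977).

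PSMB10, the counterpart of PSMB7, had 8.04 and 7.08 CPM in MDA-MB-231 and 11.4 and 9.61 CPM in MDA-MB-435, and both intervals held 1. The common log2 fold changes of PSMB8 (-0.31 ± 0.13, SE) and PSMB9 (-0.41 ± 0.19, SE) missed the threshold, with edgeR adjusted p = 0.196 and 0.248.

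Reads of each immunosubunit were also set beside those of its constitutive counterpart, which removes the scaling between libraries. Per 100 PSMB5 reads there were 39.1 PSMB8 reads in the MDA-MB-231 control and 27.4 after CPYPP, while MDA-MB-435 had 107 and 77.6. Per 100 PSMB6 reads there were 10.8 and 6.20 PSMB9 reads in MDA-MB-231, while MDA-MB-435 had 49.9 and 35.8. Neither pair of intervals overlapped between control and CPYPP in either line. For PSMB10 per 100 PSMB7 reads the values were 4.54 and 3.78 in MDA-MB-231, with overlapping intervals, and 5.11 and 3.46 in MDA-MB-435, without overlap.

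**Figure D3:**
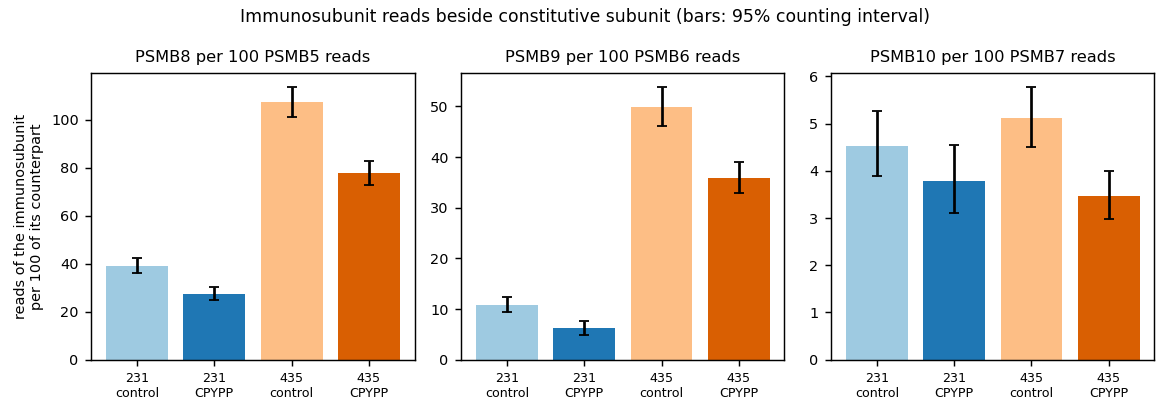
Reads of PSMB8, PSMB9 and PSMB10 per 100 reads of PSMB5, PSMB6 and PSMB7 (linear axes from 0) in each of the 4 libraries; bars on the columns are 95% exact binomial intervals for counting error. The CPYPP column is below its control in all 3 pairs and both lines, and PSMB8 per 100 PSMB5 reads stood at 107 in the MDA-MB-435 control against 39.1 in the MDA-MB-231 control.

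PSMB8 and PSMB9 lie on chromosome 6 (32840717 to 32844679 and 32844136 to 32859851 in the table), near the peptide transporter gene TAP2. The span of the transporter gene TAP1 (32845209 to 32853816) lies inside that of PSMB9. The spans of PSMB8 and PSMB9 also overlap, and PSMB8 shares 14.0% of its coding bases with a gene on the other strand. The antisense gene PSMB8-AS1 had 99 and 44 counts in MDA-MB-231, then 169 and 64 counts in MDA-MB-435, also lower in both lines. On its own strand PSMB9 shares 5.66% of its exon bases, with PSMB8-AS1 as the gene named there. Reads in that part may be left uncounted, which was not tested. The strand setting of the counting is not stated. Reads in the part of PSMB8 that lies opposite another gene, 20.6% of its exon bases, therefore cannot be assigned to 1 strand. The same holds for 4.53% of the exon bases of PSMB9. Members of other classes share such bases too, among them PSMC1 (75.8%), PSMD7 (30.7%), PSMA2 (20%), PSMC5 (19.5%) and PSMD11 (9.38%).

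Of 5 other genes of class I antigen processing, 0 passed in the common effect, beside 3.59% of all genes higher and 2.47% lower. TAP1 was lower in both lines (1367 and 736 counts in MDA-MB-231, 1446 and 931 counts in MDA-MB-435), with log2 fold changes of -0.45 and -0.34. TAP2 had -0.028 in MDA-MB-231 and was higher in MDA-MB-435 (0.24). NLRC5, the activator of class I genes, had -0.16 in MDA-MB-231 and was lower in MDA-MB-435 (-0.56), while IRF1, an interferon-response factor, was higher in both (0.26 and 0.34). B2M, the class I light chain, had -0.0089 and 0.042, the second with a call. The immune markers CD3E and PTPRC had at most 2 and 36 counts in any library.

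The ATPase ring of the 19S base unfolds the substrate. All 6 ATPase genes were higher in MDA-MB-435 and 5 in MDA-MB-231, with median log2 fold changes of 0.35 and 0.25. PSMC6 had the highest value of the class in MDA-MB-435, from 83.9 to 145 CPM, a ratio of 1.72 (95% counting interval 1.63 to 1.83). In MDA-MB-231 it had 146 and 178 CPM, a ratio of 1.22 (1.16 to 1.28). In the common effect it had a log2 fold change of 0.53 ± 0.14 (SE, edgeR adjusted p = 0.0592).

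PSMC5, probed as a protein, had 177 and 192 CPM in MDA-MB-231, a ratio of 1.09 (1.04 to 1.14), and 219 and 269 CPM in MDA-MB-435, a ratio of 1.23 (1.19 to 1.28). PSMC4 was the one ATPase with a larger log2 fold change in MDA-MB-231 (0.33, 108 and 135 CPM) than in MDA-MB-435 (0.24, 174 and 206 CPM). PSMC3 had the lowest value of the class in MDA-MB-231 (0.050, 232 and 240 CPM), with no call.

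The non-ATPase subunits form the lid and the ubiquitin receptors. All 11 were higher in MDA-MB-435 and 9 in MDA-MB-231, with median log2 fold changes of 0.37 and 0.24. PSMD14, the deubiquitinase of the lid and the fifth subunit probed as a protein, had 155 and 192 CPM in MDA-MB-231 and 208 and 309 CPM in MDA-MB-435. The ratios were 1.24 (1.18 to 1.30) and 1.49 (1.43 to 1.55), and the common log2 fold change of 0.44 ± 0.11 (SE) missed the threshold (edgeR adjusted p = 0.0578). PSMD1 went from 233 to 290 CPM in MDA-MB-231 and from 219 to 356 CPM in MDA-MB-435.

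PSMD3, a lid scaffold, was the exception in that its log2 fold change was larger in MDA-MB-231 (0.42, 129 and 172 CPM) than in MDA-MB-435 (0.37, 111 and 143 CPM). PSMD7 had the lowest value of the class in MDA-MB-231 (-0.0094, 123 and 122 CPM). PSMD2, the other large scaffold of the base, was the most read member, with 721 and 788 CPM in MDA-MB-231 and 846 and 956 CPM in MDA-MB-435, and the lowest log2 fold change of the class in the latter (0.18). PSMD4, a ubiquitin receptor, had 0.079 in MDA-MB-231, with no call, and was higher in MDA-MB-435 (0.29).

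The activators did not move as a class. Apart from PSME4, the genes of the 11S activator PA28 had small values. PSME1 had 88.3 and 81.4 CPM in MDA-MB-231, lower by test (ratio 0.921, 0.859 to 0.988), and 43.3 and 43.7 CPM in MDA-MB-435. PSME2, its partner in the interferon-inducible form, had 70.8 and 67.7 CPM in MDA-MB-231 and was higher in MDA-MB-435 (40.0 and 46.4 CPM, ratio 1.16, 1.06 to 1.27).

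PSME3, which encodes the nuclear form PA28 gamma, had 304 and 314 CPM in MDA-MB-231 and 259 and 270 CPM in MDA-MB-435, with no call in either. PSMF1, which encodes PI31, had 122 and 117 CPM and 115 and 110 CPM, also with no call. Per 100 PSME3 reads there were 60.1 and 85.9 PSME4 reads in MDA-MB-231, then 67.3 and 88.7 such reads in MDA-MB-435, without overlap of the control and CPYPP intervals in either line.

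The assembly factors were the class with the most members lower: 6 of 7 for MDA-MB-231 and 3 of 7 for MDA-MB-435. Of all genes 21.8% and 29.2% were lower in these lines. The median log2 fold changes of the class were -0.28 and -0.0029, the second close to 0. PSMG3 and PSMG4 encode the chaperone pair of the alpha ring. PSMG3 had 16.9 and 11.9 CPM in MDA-MB-231, a ratio of 0.704 (95% counting interval 0.590 to 0.839). In MDA-MB-435 it had 33.8 and 18.5 CPM, a ratio of 0.548 (0.482 to 0.621), the lowest of any member in that line. Its common log2 fold change of -0.70 ± 0.17 (SE) missed the threshold by little (edgeR adjusted p = 0.0525), and 6 of the 9 other settings tried for that fit called it lower.

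PSMG4 had 13.5 and 10.3 CPM in MDA-MB-231 and 21.6 and 14.8 CPM in MDA-MB-435, with ratios of 0.765 (0.630 to 0.926) and 0.686 (0.592 to 0.795). PSMD5, a chaperone of the 19S base, had 140 and 109 CPM in MDA-MB-231, a ratio of 0.781 (0.737 to 0.828). In MDA-MB-435 it had 93.5 and 84.5 CPM, a ratio of 0.904 (0.847 to 0.964).

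PSMD9 and PSMD10, the other base chaperones, differed from it: PSMD9 was lower in MDA-MB-231 (40.2 and 33.0 CPM) and level in MDA-MB-435 (23.5 and 23.5 CPM), and PSMD10 had no call in either line (51.7 and 48.5 CPM, then 61.1 and 65.4 CPM). PSMG2 was lower in MDA-MB-231 (58.2 and 48.9 CPM) and had 70.6 and 74.3 CPM in MDA-MB-435. Its partner PSMG1 was lower in MDA-MB-231 (75.0 and 68.2 CPM) and higher in MDA-MB-435 (71.3 and 81.5 CPM), the one member with calls in opposite directions.

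Of 12 other genes tied to the proteasome, 4 rose in the common effect and 0 fell, beside 3.59% and 2.47% of all genes. This list was chosen with earlier results of these data known, and the study itself lists ZFAND2A among the genes raised by CPYPP. The counts from it, here and below, therefore describe the list alone. ZFAND2A encodes AIRAP, a stress-induced proteasome-binding protein, and had 296 and 2840 counts in MDA-MB-231, then 163 and 4242 counts in MDA-MB-435. Its common log2 fold change was 4.32 ± 0.28 (SE, edgeR adjusted p = 0.000215). ZFAND5, which stimulates the 26S proteasome, had 1.17 ± 0.13 (SE, edgeR adjusted p = 0.00333), with 4217 and 5947 counts in MDA-MB-231, then 4181 and 9052 counts in MDA-MB-435.

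AKIRIN2, needed to import proteasomes into the nucleus, had 0.89 ± 0.14 (SE, edgeR adjusted p = 0.010), and TXNL1, a thioredoxin of the 19S cap, 0.76 ± 0.12 (SE, edgeR adjusted p = 0.0126). The maturation factor POMP was higher within each line (0.12 and 0.39) but not in the common effect. Within the lines MDA-MB-231 had 9 of the 12 higher and 1 lower, beside 23.5% and 21.8% of all genes. In MDA-MB-435, 10 were higher and 1 lower, beside 22.2% and 29.2%. Of the 4 genes of the NFE2L1 route, all were higher within each line. In the common effect 1 of these 4 passed as higher and 0 as lower, beside 3.59% and 2.47% of all genes. It was NFE2L2, the relative that drives oxidative stress genes (0.63 ± 0.14, SE, edgeR adjusted p = 0.0367). NFE2L1 itself (0.14 ± 0.10, SE), DDI2 (0.33 ± 0.13, SE) and NGLY1 (0.32 ± 0.12, SE) did not pass.

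The lines were also compared with each other. With the treatment as a block, edgeR placed 32.9% of all genes higher in MDA-MB-231 and 31.1% lower there than in MDA-MB-435. Of the 46 members it placed 13 on the first side and 12 on the second, so that the members differed between the lines no more often than all genes did. The largest differences were those of PSMB9 and PSMB8, with log2 fold changes of MDA-MB-231 over MDA-MB-435 of -2.41 ± 0.19 and -1.57 ± 0.13 (SE, edgeR adjusted p = 1.66e-05 and 1.97e-05). PSMG3 followed at -0.83 ± 0.17 (SE, edgeR adjusted p = 0.00308) and PSMC4 at -0.65 ± 0.10 (SE, edgeR adjusted p = 0.000833).

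On the other side, PSME1 had 0.96 ± 0.12 (SE, edgeR adjusted p = 0.000185), PSMB1 0.79 ± 0.10 (SE, edgeR adjusted p = 0.00027), PSMA3 0.74 ± 0.13 (SE, edgeR adjusted p = 0.00113) and PSME2 0.68 ± 0.13 (SE, edgeR adjusted p = 0.00184). So the interferon-inducible genes did not follow 1 line: PSMB8 and PSMB9 were higher in MDA-MB-435 and PSME1 and PSME2 in MDA-MB-231. Each line entered this test with 2 libraries.

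Levels of different genes were compared per length, as FPKM, which divides the CPM by the length in kilobases. The exon length in the table is a union of all transcripts and can be far longer than the main one, 8378 bases against 1487 for PSMA2, so the length of the principal GENCODE transcript was used as well, chosen after seeing the data. PSMD2, PSMA7, PSMB7 and PSMB4 were among the first 5 members under both lengths, with mean FPKM over the 4 libraries between 195 and 267 on the principal transcript. PSME3 was first on the principal transcript and the eleventh on the table's length.

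The median FPKM of the beta genes was the highest of all classes in every library under both lengths, between 98.3 and 141 on the principal transcript. In MDA-MB-231 that of the immunoproteasome and thymoproteasome genes was the lowest under both, at 9.35 in the control and 6.46 after CPYPP. In MDA-MB-435 it was 31.4 and 27.6 on the principal transcript, beside 27.2 and 24.5 for the assembly factors. On the table's length the control had 9.77, beside 17.1, so that the order of these classes in that line turned with the length. These class medians count PSMB11 at 0. PSMA2 was the lowest of the 46 under both lengths. It shares 97.1% of its coding bases with another gene on its strand, and PSMB10 shares 58.3%. Their levels may therefore be too low through uncounted reads, which was not tested. With 1 library per condition, neighbours in this order cannot be told apart.

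**Figure D4:**
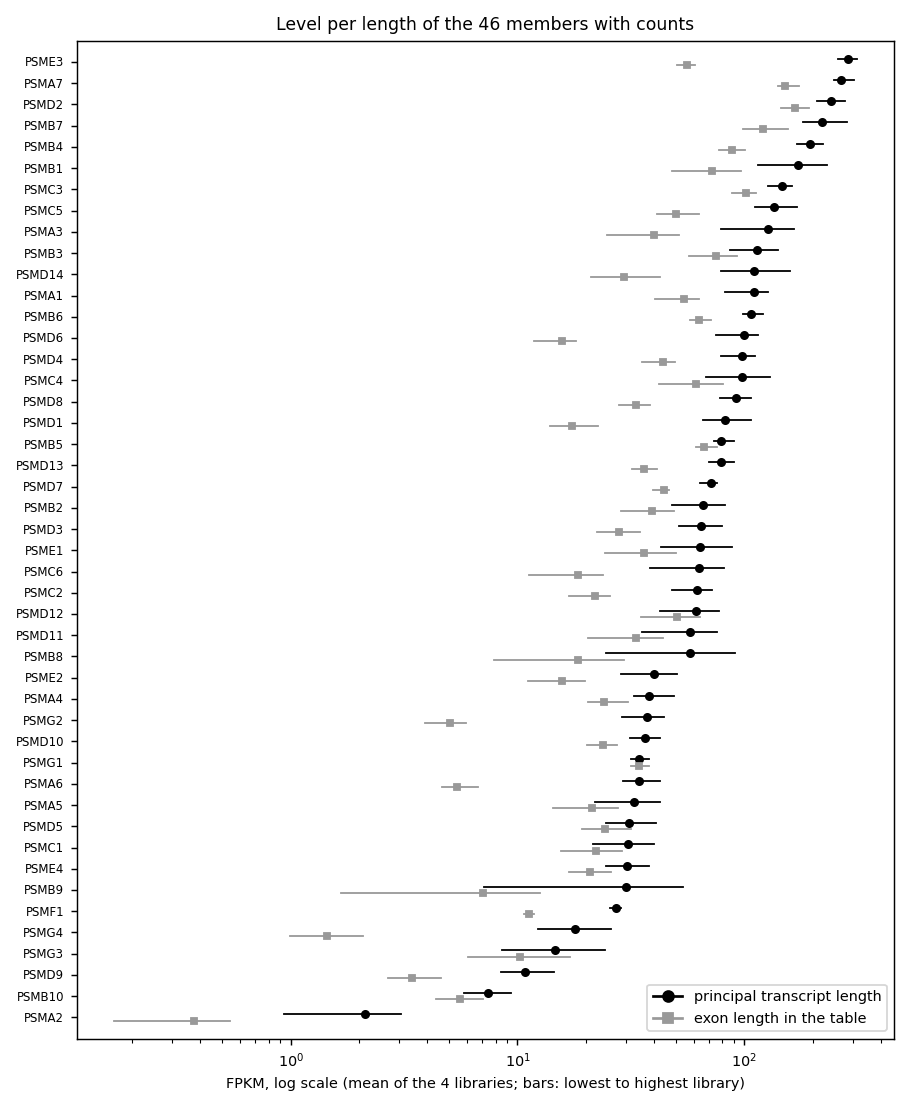
FPKM (log axis) of the 46 members with counts, in the order of the value on the principal transcript; points are means of the 4 libraries, bars run from the lowest to the highest library, black is the principal transcript length and grey the exon length in the table. PSMA7, PSMD2, PSMB7 and PSMB4 stand near the top on both lengths, and PSMA2 at the bottom. PSMA2 shares 97.1% of its coding bases with another gene on its strand, so some of its reads may be uncounted.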

How the data were processed

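Poly(A)-selected RNA of the 4 libraries was sequenced by a service provider. The authors deposited raw read counts per gene, not normalized, with gene positions and exon lengths, and the submitters' processing notes name cutadapt 1.9.1, HISAT2 2.2.1, HTSeq 0.6.1, DESeq2 and the build GRCh37.p13. The positions are nonetheless those of GRCh38, since 58241 of the 58254 identifiers shared with GENCODE release 29 overlap there. The strand setting is not given in the sources used here. Depth was 17196385 to 22663954 counts, and the intervals narrow as a member's counts rise.

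Counts were analysed with edgeR 4.0.16 (filterByExpr, TMM factors of 0.961 to 1.05, the quasi-likelihood test without legacy settings), DESeq2 1.42.0 and limma 3.58.1 in R 4.3.3, and with scipy 1.17.1 and pandas 2.3.3 in Python 3.11.15. Figures were drawn with matplotlib 3.10.9. Benjamini-Hochberg adjustment ran over all genes tested. The common dispersion was 0.0146. It holds the difference between the lines' responses and the variation between cultures together, and these cannot be told apart. Within a line, folds set counts under 3 to 3, and their 95% intervals are exact (Clopper-Pearson). Alternatives concerned scaling, filters, the test, the line block, assumed variation between cultures, the fold threshold and overlapping genes. The fits were run on simulated counts with known folds, alike in both lines. For the test within a line these counts held counting error alone. The simulation therefore cannot show how that test fares when cultures vary. Reported with all values were members called in the common effect, the 5 subunits probed as proteins, the catalytic subunits, the highest and lowest of each class and line, and members past 2-fold or not tested. Other members were given as examples after their values were seen. The members, classes and lists were chosen with earlier results of these data known. One immune marker of these lists is not reported here.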

Additional observations from a re-analysis of the deposited data

Results flagged for a closer look

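PSMG1, which pairs with PSMG2 as a chaperone of the alpha ring, was the one member whose reads differed from the control in opposite directions. Its log2 fold change after CPYPP was -0.14 in MDA-MB-231 (1680 and 1127 counts in the control and CPYPP libraries) and 0.19 in MDA-MB-435 (1690 and 1578 counts). The exact binomial adjusted p was 0.0325 and 0.000434, on 1 library per condition. Both signs held under the 3 other scalings. The difference between the lines was not tested. With 1 library in each group, no group was large enough to look for an outlying sample.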

How the results depend on the processing

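With 1 library per condition no replicate could be left out. The line block pairs the control and CPYPP libraries of a line, and the libraries carry no replicate numbers by which to pair them further. In the common effect the 4 members higher and 0 lower became 7 and 1 with total counts, 6 and 1 with DESeq2 size factors, 6 and 1 with the upper quartile, 5 and 1 with at least 10 counts in 1 library, 7 and 1 with edgeR's legacy quasi-likelihood, and 11 and 1 with DESeq2. Over all genes, the shares of 3.59% higher and 2.47% lower moved as well, to between 3.72% and 4.61% higher and 2.35% and 6.17% lower in the edgeR settings among these. With DESeq2 they were 10.1% and 6.91%. The member counts became 0 and 0 with no filter, without the line block, or with limma on log2(FPKM + 1), and the cause was not tested. In these fits at most 0.958% of all genes passed as higher and 0.423% as lower. The 4 members called passed in the same 6 of the 9 settings, PSMD1 passed in 6 and PSMC6 in 5. Signs of the common log2 fold change turned only near 0: with total counts for PSMD10 (-0.065), PSME3 (-0.016), PSMB4 (-0.030) and PSMG1 (-0.039), and with the upper quartile for PSMD10 (-0.033) and PSMG1 (-0.0071).

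Within the lines, an assumed biological coefficient of variation of 0.1, 0.2 or 0.4 between cultures left MDA-MB-231 with 0 members higher and 0 lower. MDA-MB-435 kept 8 higher and 1 lower at 0.1, 1 and 0 at 0.2, and 0 and 0 at 0.4. At 0.2 the shares of all genes were 0.675% higher and 0.274% lower in the first line and 0.66% and 1.19% in the second. Past 1.5-fold MDA-MB-231 had 0 higher and 1 lower, and MDA-MB-435 had 6 and 1, beside 8.28% and 6.87% of all genes in the first line and 6.43% and 13.6% in the second. Every member with a call within a line kept its sign under the 3 other scalings, but the number of calls moved. With total counts MDA-MB-231 had 19 members higher and 11 lower, and MDA-MB-435 had 32 and 7. With DESeq2 size factors they had 22 and 9, and 34 and 4. Shares of all genes under these 2 scalings are not given here. The median log2 fold change of the members stayed between 0.037 and 0.097 in MDA-MB-231 and between 0.22 and 0.32 in MDA-MB-435 over the scalings, and the counts of members that differ between the lines stayed within 1.5 times.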

Other observations

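Of 51 further rows whose symbol starts like a proteasome gene but which are pseudogenes, antisense or other genes, 14 had at least 10 counts in a library. The antisense gene PSMA3-AS1 was lower after CPYPP in both lines by the exact binomial test, with 1214 and 659 counts in MDA-MB-231, then 944 and 675 counts in MDA-MB-435. PSMA3 itself was higher in both, from 148 to 160 CPM and from 76.8 to 110 CPM. PSMD6-AS2 was higher in MDA-MB-231 (38 and 67 counts) and had 45 and 49 counts in MDA-MB-435, without a call.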
